A study of Mus musculus with 83 samples.

Results

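The genes of fatty acid oxidation and ketogenesis were followed through adult life in the colon of male mice. The module holds 30 genes, chosen by symbol for their place in the pathway, out of 37764 genes in the RNA-seq count table. It runs from fatty acid uptake and storage through the carnitine shuttle, the mitochondrial and peroxisomal oxidation steps and electron transfer to ketone body metabolism and the regulators of these genes. All 83 mice were male and of the C57BL/6J/Ukj strain, and the labels name no treatment or introduced allele in any group. There were 17 mice at 24 months, 18 at 28 months and 16 at each of the younger ages, 3, 9 and 15 months. Bulk tissue of the proximal colon was sequenced with polyA selection, in 3 library batches that each held between 4 and 7 mice of every age. Between 23026370 and 75838290 read pairs per mouse fell on genes (median 35495123).

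Mitochondrial β-oxidation shortens fatty acids by repeated rounds of dehydrogenation, hydration, a second dehydrogenation and thiolysis. Long-chain fatty acids must first be joined to carnitine to cross the inner mitochondrial membrane, and the electrons taken from them enter the respiratory chain through electron transfer flavoprotein. Colonocytes, the absorptive cells of the colon, draw much of their energy from the butyrate made by gut bacteria, which is oxidised by the same machinery, and they express the enzymes of ketone body synthesis. Nuclear receptors of the PPAR family, activated by fatty acids, are the best known transcriptional regulators of these genes.

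The tissue label was checked against marker genes before the module was examined. Markers of epithelium were abundant in every mouse: the summed level of 5 pan-epithelial markers ranged from 6010 to 12200 CPM (its read pairs relative to the TMM-adjusted size of the library) and that of 7 colonocyte markers from 6550 to 14100 CPM. Hepatocyte markers summed to between 1.99 and 6.72 CPM, with Serpina1a at 0 in 55 mice, and the small intestine markers to between 128 and 537 CPM, mostly Slc10a2 (median 153 CPM) and Alpi (50.8 CPM), with Apoa4 at 0 in 21 mice and Lct in 1. The summed level of the adipocyte markers ranged from 11.1 to 283 CPM, with Adipoq at 0 in 2 mice. In the 3-month group, replicates 10 and 16 stood apart on the first principal component (−52.2 and −58.5, other mice −41.7 to 31.1), and replicate 13 of the 28-month group had the lowest mean correlation with mice of its own age (0.977). Replicate 16 of the 15-month group had the highest share of counts on mitochondrial genes (5.86%, lowest of all mice 3.56%) and the lowest pan-epithelial and goblet cell sums, and it was the lowest of all 83 mice for 11 of the 30 members (the next mouse, for 4). The 28-month mice also differed in their circadian clock genes, as described below, and calls that changed without these mice are given beside the results.

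On a scale corrected for gene length (TPM), the members differed widely in mean level over all mice, from 0.968 TPM for Fabp1 to 1600 TPM for Fabp2, the intestinal fatty acid-binding protein. After Fabp2 the highest mean levels were those of Acads (397 TPM), Acaa2 (252 TPM), Slc16a1 (238 TPM) and Acadvl (236 TPM). The lowest, apart from Fabp1, were Angptl4 (3.65 TPM), Ppargc1a (15.2 TPM), Ppara (15.3 TPM) and Cd36 (19.9 TPM). The module thus held 1 gene of very high level, a broad middle of enzymes around 100 TPM, and low levels of 2 of its 3 transcriptional regulators.

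Each gene was tested between successive ages and between the oldest and the youngest mice in 1 model of all genes, with library batch as a term. A change is called here where the adjusted p-value was below 0.1, the threshold of the study's methods (edgeR quasi-likelihood test, Benjamini-Hochberg adjustment over the 18325 genes tested). Of the 30 members, 29 entered the tests, and Fabp1 did not pass the filter on low counts. Successive comparisons share the mice of the age between them, and the comparison of 28 with 3 months shares mice with 2 of the others, so the comparisons are not independent of each other.

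The module changed little from one age to the next, and its changes in late life went in both directions. Between 3 and 9 months 1 of 29 members was called, Pdk4, which was higher at 9 months, while 8.69% of all genes tested were called. A further 25 members were above their 3-month level at 9 months without being called, giving 26 positive and 3 negative estimates with a median log2 fold change of 0.04 (all genes: 47.8% positive, median −0.01). Between 9 and 15 months 0 of 29 members were called by edgeR and 0 by DESeq2 (0.431% of all genes by edgeR). In that comparison 26 estimates were negative and 3 positive (median −0.06, against 0.01 over all genes), and 3 members had an unadjusted p-value below 0.05, Hadh (−0.08), Acadl (−0.08) and Slc25a20 (−0.10 on the log2 scale).

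Between 15 and 24 months 2 of 29 members, or 6.9%, were called higher and 0 lower, beside 6.28% of all genes called higher and 7.24% called lower. Between 24 and 28 months 3 members (10.3%) were called higher and 2 (6.9%) lower, where the shares of all genes were 5.66% and 6.01%. Over the whole span from 3 to 28 months 14 of 29 members were called, 9 higher (31%) and 5 lower (17.2%), while 23.5% of all genes were called higher and 25.9% lower. The median log2 fold change of the members over this span was −0.00 (−0.01 over all genes), and the median size of the change, whatever its sign, was 0.08 against 0.14 over all genes. The course over the 5 ages left a straight line for 6 of 29 members (20.7%), beside 16.2% of all genes (joint edgeR test of the 3 terms of age beyond the linear one). Read against all genes, these shares of the main fit show nothing particular to the members. The share off a straight line depended on the fit. It was 9 of 29 members with DESeq2's size factors (16.4% of all genes) and 10 of 30 with DESeq2 (15.7%). With the clock score described below as a covariate it was 1 of 29 (7.94%). In 150 comparisons of a member between 2 ages there was none in which the ranges of the mice did not overlap, and over all genes tested this was so in 0.167% of comparisons.

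The counts of members depended in part on the mice named above. Without the 3 mice that stood apart, 3-month replicates 10 and 16 and 28-month replicate 13, the share of all genes called between 3 and 9 months was 3.33% and Pdk4 was still the 1 member called. In that fit 11 members were called at 28 against 3 months, with Bdh1, Cpt1a, Hadha and Pdk4 lost and Fabp1, which then passed the filter, gained (45.4% of all genes). It also called Fabp1 lower between 15 and 24 months, 3 members in all (15.9% of all genes), and 9 members off a straight line, with Acadm, Cpt1a and Fabp1 gained (18.4% of all genes). Without replicate 16 of the 15-month group, 3 members were called between 3 and 9 months, Acadl and Fabp2 beside Pdk4 (9.66% of all genes), and 3 between 15 and 24 months, with Cpt2 as the 1 lower (14.1% of all genes). The other counts without this mouse were as above, 0, 5 and 14 between ages and 6 off a straight line, and both sets of mice were left out only after their values were seen.

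**Figure D1:**
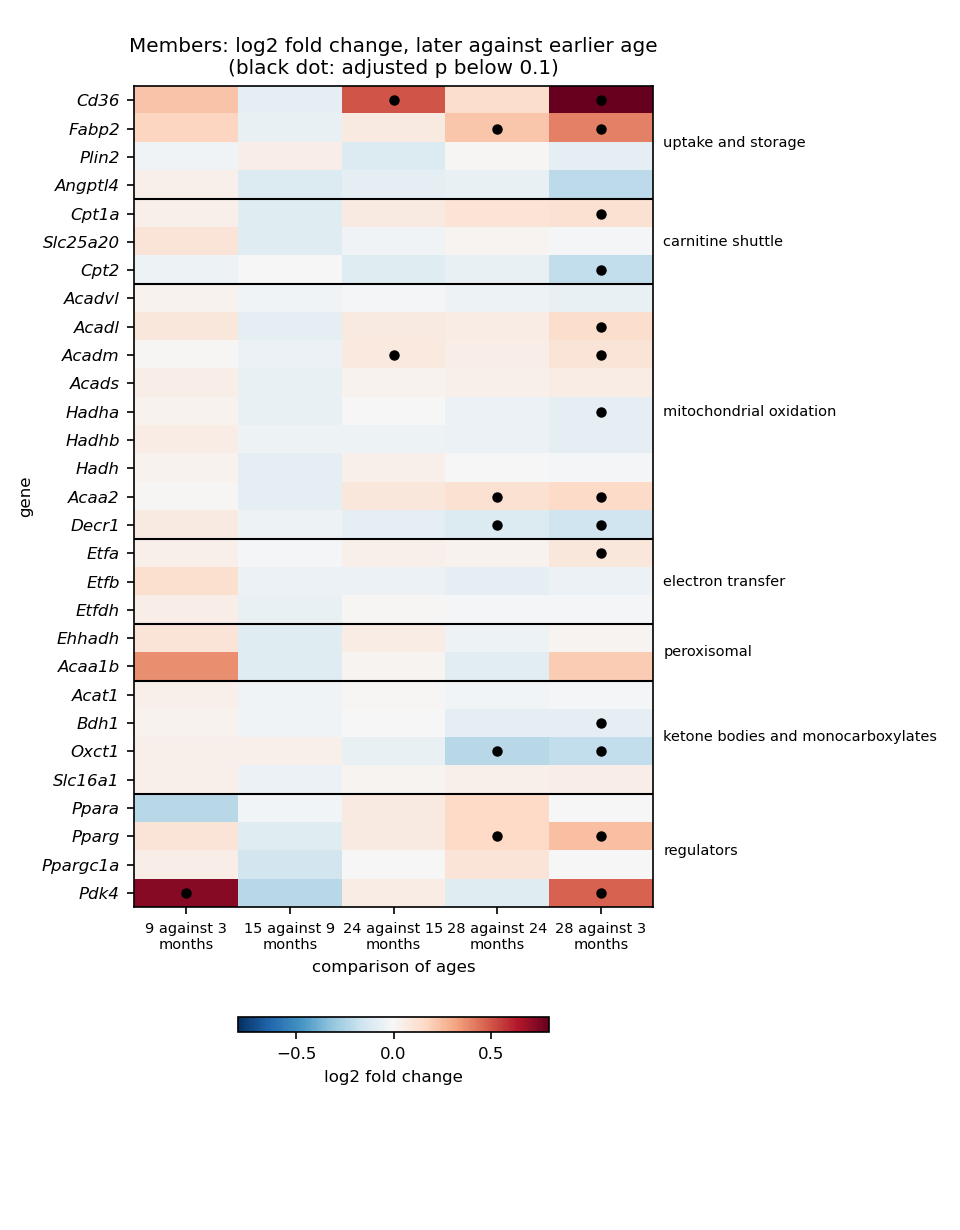
Log2 fold change of the 29 members tested (rows, ordered by role) in 5 comparisons of ages (columns), with a black dot where the adjusted p-value was below 0.1 (edgeR quasi-likelihood test). Dots are few between successive ages, at most 5 in a column, and number 14 at 28 against 3 months, with both signs.

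Of the genes of uptake, intracellular binding and storage, Cd36 and Fabp2 rose with age, and Plin2 and Angptl4 were called in no test. Cd36 (chr5:17781690-17888801, minus strand, GRCm38) encodes a membrane receptor that takes up long-chain fatty acids. Its lowest, median and highest levels were 12.1, 16.4 and 28.9 CPM in the 3-month mice, 11.4, 19.1 and 38.9 CPM at 9 months and 11.8, 19.9 and 27.8 CPM at 15 months. They were 17.6, 22.3 and 61.2 CPM at 24 months and 20, 28.3 and 52.3 CPM at 28 months. The ranges overlapped at all ages, but 18 of 18 mice at 28 months lay above the 3-month median and 8 of them above every 3-month mouse. Cd36 rose by 0.50 ± 0.16 on the log2 scale between 15 and 24 months (SE, edgeR adjusted p = 0.0342) and by 0.80 ± 0.15 between 3 and 28 months (edgeR adjusted p = 1.71e-05), an increase of 73.9%. The log2 differences within the 3 batches were uneven for the first of these, 0.32, 0.05 and 0.97, and closer for the second, 0.58, 0.98 and 0.88.

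Cd36 is also expressed by adipocytes, endothelial cells and macrophages, and in bulk tissue fewer or more cells of a type cannot be told apart from less or more RNA per cell. Of the endothelial markers 4 of 5 were called higher at 24 than at 15 months and 4 of 5 higher at 28 than at 3 months, with sums of 89.6 to 107 CPM at 3 months and 93.2 to 131 CPM at 28 months. Of the macrophage markers 3 of 5 were called higher at 24 than at 15 months and 4 of 5 at 28 than at 3 months (sums 97.5 to 153 CPM and 92.2 to 228 CPM). Of the adipocyte markers 0 of 6 were called between 15 and 24 months and 2 of 6, Cidec and Retn, between 3 and 28 months, where the sums were 14 to 130 CPM and 15.3 to 283 CPM. Adipoq differed by 0.64 ± 0.60 between 3 and 28 months (edgeR adjusted p = 0.402). With the adipocyte score, the mean log2 CPM of the 6 markers, as a covariate, the log2 fold change of Cd36 was 0.36 between 15 and 24 months (edgeR adjusted p = 0.0102) and 0.75 between 3 and 28 months (edgeR adjusted p = 1.66e-10). The part of the endothelial and macrophage markers in the rise of Cd36 was not tested.

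Fabp2 (chr3:122895072-122899506, plus strand) carries fatty acids through the cytosol of enterocytes. Its lowest, median and highest levels were 355, 449 and 529 CPM at 3 months, 406, 507 and 594 CPM at 9 months and 425, 456 and 676 CPM at 15 months. They were 413, 500 and 615 CPM at 24 months and 435, 604 and 794 CPM at 28 months. The 28-month mice were the highest group, with 17 of 18 above the 3-month median and 10 above every 3-month mouse, although the ranges of all ages overlapped. The rise was 0.22 ± 0.06 between 24 and 28 months (edgeR adjusted p = 0.0167) and 0.40 ± 0.06 between 3 and 28 months (edgeR adjusted p = 4.29e-07), or 31.7%, with 0.35, 0.32 and 0.50 within the 3 batches. Its course over the 5 ages departed from a straight line (edgeR adjusted p = 0.0655).

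Fabp1, the liver-type fatty acid-binding protein, was nearly silent here. Its 544 counts over all libraries came from 82 of the 83 mice, with 0 to 0.665 CPM per mouse, and its mean level was 0.199 CPM at 3 months, 0.243 CPM at 15 months and 0.0944 CPM at 28 months. When the filter on low counts was left out, Fabp1 was lower at 28 than at 3 months, with a log2 fold change of −1.06 (edgeR adjusted p = 0.00295). It was also called lower in this comparison by DESeq2 and without the 3 mice that stood apart, where it was tested. The 2 binding proteins thus differed in both level and direction. In the storage group, Plin2, which coats lipid droplets, ranged from 55.5 to 106 CPM over all mice with log2 fold changes between −0.11 and 0.05, and was called in no test (lowest edgeR adjusted p = 0.291). Angptl4, a secreted inhibitor of lipoprotein lipase, ranged from 0.872 to 10.3 CPM, with log2 fold changes of −0.21 to 0.04 (lowest edgeR adjusted p = 0.481).

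**Figure D2:**
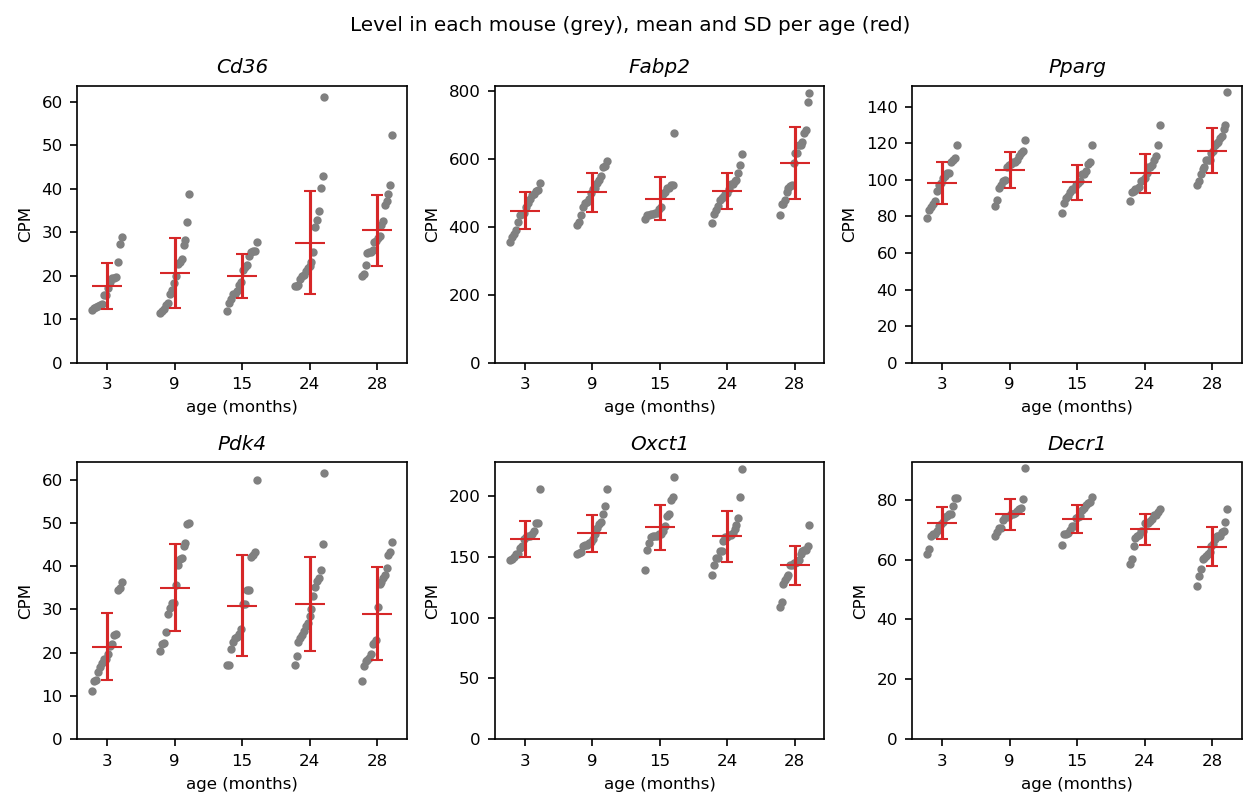
Level of 6 members in every mouse (CPM, vertical axis starting at 0) at the 5 ages (horizontal axis, months), with the mean and SD of each age in red. The 28-month mice had the highest medians of Cd36, Fabp2 and Pparg and the lowest of Oxct1 and Decr1, Pdk4 was lowest at 3 months, and the ages overlapped for all 6.

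Promoters are shown for the members in which a direct repeat element for PPAR was found, since PPAR proteins bind such elements. The promoter window covered 250 bases before and 50 after each start site in RefSeq (GRCm38.p6), and it was given for 26 of the 30 members. The element searched on both strands was AGGTCA repeated after 1 base, with at most 2 mismatches over its 12 fixed letters. It was found for 5 of the 26 members and for 4.4% of all symbols in the table. The 5 sequences below read 5′ to 3′ on the strand of the gene, with the element in capitals and 8 flanking bases on either side.
Plin2, chr4:86670264-86670292, minus strand: agctttcaGGACCCCTGACCTaagtcaga
Cd36, chr5:17835939-17835967, minus strand: tggttctcTGGCCTCTGACTTacttggat
Fabp1, chr6:71199804-71199832, plus strand: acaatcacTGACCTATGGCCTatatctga
Etfa, chr9:55512300-55512328, minus strand: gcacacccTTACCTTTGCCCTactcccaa
Slc25a20, chr9:108662134-108662162, plus strand: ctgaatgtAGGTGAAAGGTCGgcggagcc

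The Fabp1 element had 1 mismatch and the other 4 had 2 each. In Slc25a20 the repeat lay on the strand of the gene, beginning 6 bases past the start site, and in the other genes on the opposite strand, from 50 bases (Cd36) to 212 bases (Plin2) before it. The RefSeq start of Cd36 lies inside the gene span given above, so the window belongs to 1 of its start sites. The genes with an element did not move together: Cd36 and Etfa were called higher at 28 than at 3 months, Plin2 and Slc25a20 were called in no comparison, and Fabp1, which failed the filter, was called lower where it was tested without it. A match describes the letters in this window and not the binding of a factor.

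In the carnitine shuttle the estimates of the 2 transferases between 3 and 28 months had opposite signs. Cpt1a (chr19:3322334-3385733, plus strand), on the outer mitochondrial membrane, makes acylcarnitine and is the main point of control over the pathway. Its lowest, median and highest levels were 258, 347 and 398 CPM at 3 months, 295, 352 and 393 CPM at 9 months and 215, 338 and 365 CPM at 15 months. They were 289, 341 and 383 CPM at 24 months and 284, 382 and 446 CPM at 28 months, so that the oldest group had the highest median with ranges that overlapped. The change between 3 and 28 months was 0.12 ± 0.05 (edgeR adjusted p = 0.0609). Without the 3 mice that stood apart it was 0.10 and no longer called (edgeR adjusted p = 0.14). With the clock score described below as a covariate it was 0.06 and not called either (edgeR adjusted p = 0.545).

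Cpt2 (chr4:107903981-107923610, minus strand), on the inner membrane, returns the acyl group to coenzyme A. Its lowest, median and highest levels were 90.6, 108 and 144 CPM at 3 months, 102, 108 and 119 CPM at 9 months and 66.1, 112 and 120 CPM at 15 months. They were 87.7, 102 and 126 CPM at 24 months and 81.0, 98.8 and 109 CPM at 28 months. The medians of the 2 oldest groups lay below those of the 3 younger ones. Cpt2 fell by 0.20 ± 0.05 between 3 and 28 months (edgeR adjusted p = 0.000689), with −0.28, −0.17 and −0.13 in the 3 batches. Slc25a20, the carrier that exchanges acylcarnitine for carnitine across the inner membrane, ranged from 133 to 217 CPM with log2 fold changes between −0.10 and 0.10, and was called in no test (lowest edgeR adjusted p = 0.245).

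Of the acyl-CoA dehydrogenases, which catalyse the first step of each round, those for long and medium chains rose slightly with age. Acadl, for long chains, had lowest, median and highest levels of 119, 136 and 163 CPM at 3 months, 131, 148 and 160 CPM at 9 months, 98.5, 143 and 152 CPM at 15 months, 126, 147 and 162 CPM at 24 months and 131, 153 and 180 CPM at 28 months. Acadm, for medium chains, had 108, 133 and 146 CPM at 3 months, 124, 131 and 146 CPM at 9 months, 115, 129 and 139 CPM at 15 months, 124, 136 and 146 CPM at 24 months and 123, 140 and 166 CPM at 28 months. Both were highest in the median at 28 months, and the ranges overlapped. Acadl rose by 0.14 ± 0.04 between 3 and 28 months (edgeR adjusted p = 0.00165). Acadm rose by 0.08 ± 0.03 between 15 and 24 months (edgeR adjusted p = 0.0703) and by 0.10 ± 0.03 between 3 and 28 months (edgeR adjusted p = 0.00326). Acadvl, for very long chains, and Acads, the short-chain enzyme that acts on butyrate, were called in no test, with log2 fold changes of −0.06 to 0.03 and −0.06 to 0.06.

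Hadha and Hadhb encode the 2 subunits of the mitochondrial trifunctional protein, which carries out the later steps for long chains. Their genes lie head to head on chromosome 5, Hadha on the minus strand at chr5:30118304-30155162 and Hadhb on the plus strand at chr5:30155248-30184593, with 85 bases between them in the annotation. This interval is shown because both genes start from it. It is 69.4% G and C and reads, on the plus strand of GRCm38.p6:
chr5:30155163-30155247: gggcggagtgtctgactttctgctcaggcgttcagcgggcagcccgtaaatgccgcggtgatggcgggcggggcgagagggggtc
Reads were counted by strand, which separates the pair. Hadha had lowest, median and highest levels of 241, 262 and 298 CPM at 3 months, 234, 269 and 297 CPM at 9 months, 167, 267 and 287 CPM at 15 months, 235, 259 and 285 CPM at 24 months and 221, 250 and 287 CPM at 28 months. The ranges overlapped, with 7 of 18 mice at 28 months below every 3-month mouse. The change between 3 and 28 months was −0.08 ± 0.04 (edgeR adjusted p = 0.0844) for Hadha and missed the threshold for Hadhb (lowest edgeR adjusted p over the tests = 0.108, log2 fold changes −0.07 to 0.06). The call of Hadha was lost under most alternatives, DESeq2 and the colonocyte and smooth muscle scores among them, and without the 3 mice that stood apart (log2 fold change −0.06, edgeR adjusted p = 0.205).

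Among the other mitochondrial enzymes, Acaa2 and Decr1 changed in opposite directions late in life. Acaa2, the thiolase of the last step, had lowest, median and highest levels of 94.4, 122 and 140 CPM at 3 months, 108, 124 and 160 CPM at 9 months, 101, 115 and 140 CPM at 15 months, 110, 126 and 145 CPM at 24 months and 115, 136 and 164 CPM at 28 months. It was highest in the oldest mice, rising by 0.12 ± 0.04 between 24 and 28 months (edgeR adjusted p = 0.0844) and by 0.15 ± 0.05 between 3 and 28 months (edgeR adjusted p = 0.00636), with a departure from a straight line (edgeR adjusted p = 0.0486). Decr1, a reductase needed for the oxidation of unsaturated fatty acids, had levels of 61.9, 72.3 and 80.5 CPM at 3 months, 68.0, 74.9 and 90.5 CPM at 9 months, 64.8, 74.0 and 80.8 CPM at 15 months, 58.6, 72.2 and 76.9 CPM at 24 months and 51.2, 64.8 and 77.0 CPM at 28 months. The oldest group was the lowest, and 7 of its 18 mice lay below every 3-month mouse. Decr1 fell by 0.11 ± 0.03 between 24 and 28 months (edgeR adjusted p = 0.0226) and by 0.16 ± 0.03 between 3 and 28 months (edgeR adjusted p = 8.97e-05), and departed from a straight line (edgeR adjusted p = 0.00865). Hadh, the dehydrogenase for short and medium chains, ranged from 224 to 336 CPM and was called in no test (lowest edgeR adjusted p = 0.399).

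Electron transfer flavoprotein passes electrons from these dehydrogenases to the respiratory chain. Its α subunit gene Etfa had lowest, median and highest levels of 104, 124 and 140 CPM at 3 months, 109, 128 and 139 CPM at 9 months, 113, 126 and 139 CPM at 15 months, 116, 133 and 143 CPM at 24 months and 112, 131 and 155 CPM at 28 months. The 2 oldest groups had the higher medians, and Etfa rose by 0.09 ± 0.03 between 3 and 28 months (edgeR adjusted p = 0.00693). The β subunit gene Etfb (13.2 to 46.6 CPM) and Etfdh (74.4 to 122 CPM), the oxidoreductase that hands the electrons on to ubiquinone, were called in no test. The peroxisomal enzymes Ehhadh, a bifunctional enzyme, and Acaa1b, a thiolase, were also called in none, with log2 fold changes of −0.10 to 0.10 and −0.10 to 0.37. Acaa1b has a close paralog, Acaa1a, and because multiply mapped reads were left out of the counts its level (9.36 to 33.3 CPM) is uncertain.

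In ketone body metabolism the gene of ketone use fell in the oldest mice. Oxct1 (chr15:4026383-4155344, plus strand) encodes the mitochondrial transferase that activates acetoacetate for oxidation. Its lowest, median and highest levels were 147, 166 and 206 CPM at 3 months, 152, 164 and 206 CPM at 9 months and 139, 169 and 216 CPM at 15 months. They were 135, 166 and 222 CPM at 24 months and 109, 145 and 176 CPM at 28 months. The medians of the first 4 ages lay between 164 and 169 CPM, the 28-month median lay below them, and 11 of 18 mice at 28 months were below every 3-month mouse. Oxct1 fell by 0.22 ± 0.05 between 24 and 28 months (edgeR adjusted p = 0.00324) and by 0.20 ± 0.05 between 3 and 28 months (edgeR adjusted p = 0.00108). It had the lowest p-value of the members for departure from a straight line (edgeR adjusted p = 0.00304).

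Bdh1, which interconverts acetoacetate and β-hydroxybutyrate, had lowest, median and highest levels of 191, 205 and 216 CPM at 3 months, 181, 205 and 243 CPM at 9 months, 149, 203 and 240 CPM at 15 months, 190, 208 and 227 CPM at 24 months and 165, 196 and 222 CPM at 28 months. The oldest group was slightly the lowest in the median. The change between 3 and 28 months was −0.07 ± 0.04 (edgeR adjusted p = 0.0847), and it was the 1 call whose sign was not the same in every batch (−0.17, −0.09 and 0.04). It was not called with DESeq2 or without the 3 mice that stood apart (edgeR adjusted p = 0.109). Acat1, the mitochondrial thiolase of ketone body synthesis and breakdown, had log2 fold changes of −0.03 to 0.04. Slc16a1, which carries butyrate, lactate and ketone bodies across the cell membrane, ranged from −0.05 to 0.05, and neither was called (lowest edgeR adjusted p = 0.517 and 0.44).

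Of the 3 transcriptional regulators Pparg was the 1 called by edgeR in the tests above. Pparg (chr6:115360951-115490399, plus strand), a nuclear receptor known for adipocyte differentiation, is also abundant in colonocytes. Its lowest, median and highest levels were 79.2, 99.4 and 119 CPM at 3 months, 85.7, 109 and 122 CPM at 9 months, 81.7, 98.0 and 119 CPM at 15 months, 88.4, 101 and 130 CPM at 24 months and 97.5, 115 and 148 CPM at 28 months. The oldest mice were the highest group. Pparg rose by 0.16 ± 0.05 between 24 and 28 months (edgeR adjusted p = 0.031) and by 0.24 ± 0.05 between 3 and 28 months (edgeR adjusted p = 0.000115), and departed from a straight line (edgeR adjusted p = 0.0456). Ppara, the receptor that drives fatty acid oxidation in fasting, ranged from 9.41 to 30.2 CPM with log2 fold changes of −0.22 to 0.16 (lowest edgeR adjusted p = 0.103). That lowest value was for departure from a straight line, which was called for Ppara by DESeq2, with DESeq2's size factors, with at least 10 counts in every mouse, without the batch term and with the adipocyte score as a covariate. Ppargc1a, a coactivator of mitochondrial biogenesis, ranged from 18.6 to 48.4 CPM with log2 fold changes of −0.15 to 0.10 (lowest edgeR adjusted p = 0.408).

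Pdk4 (chr6:5483351-5496309, minus strand), a kinase that inhibits pyruvate dehydrogenase and so spares glucose when fatty acids are burned, was the 1 member called early in life. Its lowest, median and highest levels were 11.1, 19.2 and 36.3 CPM at 3 months, 20.4, 33.6 and 50.1 CPM at 9 months and 17.1, 28.4 and 60.0 CPM at 15 months. They were 17.2, 28.4 and 61.5 CPM at 24 months and 13.5, 26.7 and 45.6 CPM at 28 months. The 3-month group was the lowest, and 16 of 16 mice at 9 months lay above its median. Pdk4 rose by 0.73 ± 0.17 between 3 and 9 months (edgeR adjusted p = 0.00519), or 65.9%, with 0.57, 0.68 and 1.02 in the 3 batches. The 28-month level was 0.47 ± 0.17 above that at 3 months (edgeR adjusted p = 0.0192), with 0.25, 0.19 and 0.89 by batch, and without the 3 mice that stood apart the difference was 0.35 and not called (edgeR adjusted p = 0.108). The departure from a straight line was called (edgeR adjusted p = 0.0222).

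**Figure D3:**
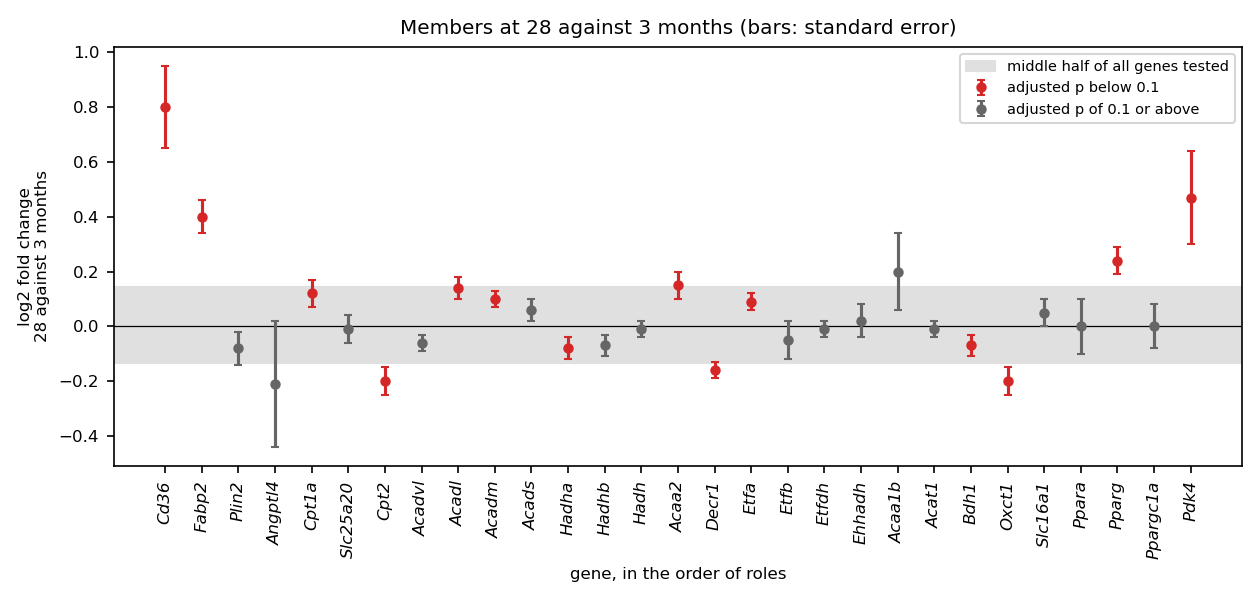
Log2 fold change of each of the 29 members tested between 3 and 28 months (vertical axis, points with SE bars, genes along the horizontal axis), with the interquartile range of all genes tested as a grey band. Of the members called, Cd36 (0.80), Pdk4 (0.47) and Fabp2 (0.40) lie highest and Cpt2 (−0.20), Oxct1 (−0.20) and Decr1 (−0.16) lowest.

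The changes between 24 and 28 months coincided with a shift of the circadian clock genes. Many genes of fatty acid metabolism follow a daily rhythm, so the clock was measured in every mouse as the mean log2 CPM of 6 output genes (Ciart, Dbp, Tef, Nr1d1, Nr1d2 and Per3). The median of this score was 3.31, 3.54, 3.24 and 3.19 at 3, 9, 15 and 24 months and 5.04 at 28 months, where it ranged from 2.86 to 6.20 (2.73 to 4.88 at the other ages). Of the 11 clock genes listed, 7 were called higher and 2 lower at 28 than at 24 months, among them Dbp (2.17 ± 0.32, edgeR adjusted p = 4.43e-06), Tef (1.66 ± 0.20, edgeR adjusted p = 1.75e-08) and Arntl (−0.63 ± 0.12, edgeR adjusted p = 0.000426). The time of day at sampling is not given in the sources used here, and the effects of age and of the clock's phase at 28 months cannot be told apart by this design.

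With the clock score as a covariate, a choice made after its values were seen, the genes called between 24 and 28 months went from 2139 to 19 and the members from 5 to 0. The log2 fold change of Fabp2 in this comparison went from 0.22 to 0.04 (edgeR adjusted p = 0.942), that of Pparg from 0.16 to 0.08 (edgeR adjusted p = 0.782) and that of Decr1 from −0.11 to −0.05 (edgeR adjusted p = 0.808). Oxct1 went from −0.22 to −0.16 (edgeR adjusted p = 0.397), and Acaa2 kept its estimate of 0.12 with a larger error (edgeR adjusted p = 0.554). Between 3 and 28 months 10 of 14 members were still called, while all genes called went from 9046 to 6295, or 34.4%. Cd36 was at 0.85 (edgeR adjusted p = 0.000397), and Fabp2 went from 0.40 to 0.22 (edgeR adjusted p = 0.0162). Pparg went from 0.24 to 0.15 (edgeR adjusted p = 0.0524) and Decr1 from −0.16 to −0.09 (edgeR adjusted p = 0.0751). No longer called were Acadm (0.06), Bdh1 (−0.03), Cpt1a (0.06) and Hadha (−0.02). Of the 6 departures from a straight line that of Pdk4 was still called (edgeR adjusted p = 0.0484), with 7.94% of all genes.

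**Figure D4:**
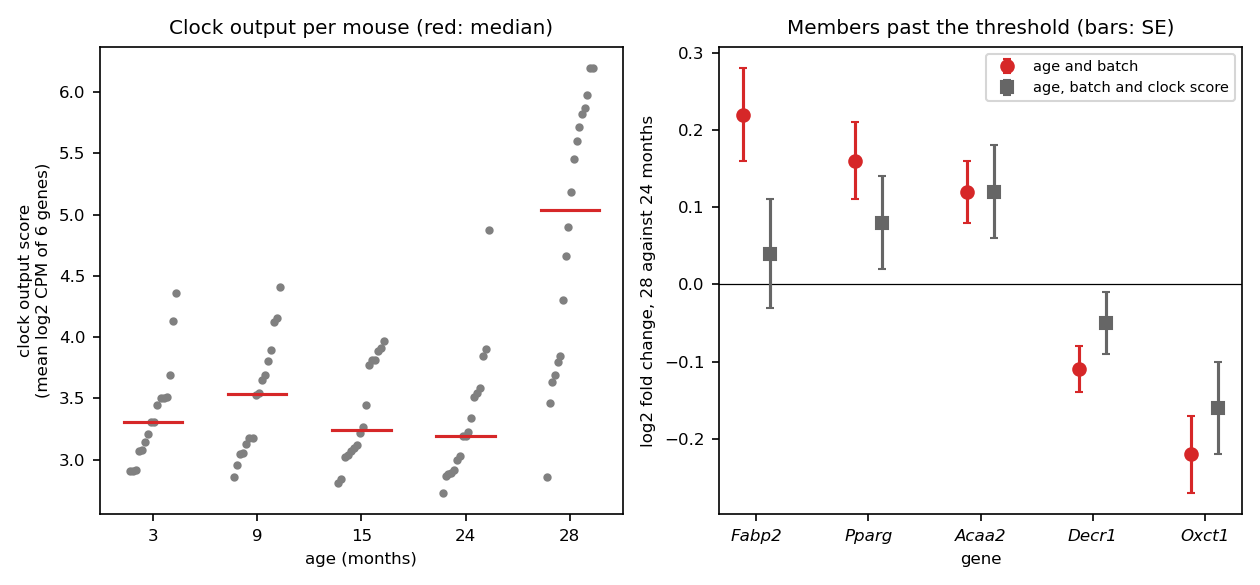
Clock output score of every mouse (mean log2 CPM of 6 clock genes) by age in months, with the median of each age in red, and the log2 fold change with SE between 24 and 28 months of the 5 members called, without and with the score as a covariate. The score's median at 28 months (5.04) lies above every mouse of the other ages, and Fabp2 goes from 0.22 to 0.04 with the covariate.

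Within the 28-month mice alone, where age does not vary, the members were compared with the clock score across 18 mice after removal of batch means. None of 29 members passed the adjusted threshold, and 3 had an unadjusted permutation p-value below 0.05, each with an adjusted p of 0.211 (0.449 for Spearman's rho). Fabp2 was higher in mice with a higher clock score (Pearson's r = 0.57, permutation p = 0.0166, Spearman's rho = 0.49, r = 0.50 without the 2 mice furthest from the median score, and 0.62, 0.54 and 0.61 within batches). Oxct1 was lower in such mice (r = −0.50, permutation p = 0.0218, rho = −0.54, r = −0.52 without 2 mice, and −0.69, −0.40 and −0.57 within batches). Acadm had r = 0.53 (permutation p = 0.0133, 0.60 without 2 mice, and 0.67, 0.15 and 0.75 within batches). Across the 65 mice of the other ages 0 of 29 passed and 2 had an unadjusted p-value below 0.05, and r was 0.33 for Fabp2, 0.04 for Oxct1 and 0.04 for Acadm. With batches of 5 to 7 mice at 28 months, the within-batch values describe few points.

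A further 75 genes of the same pathway, listed by their known function, were examined beside the members, of which 74 were tested. Of these 74, 4 were called higher and 2 lower between 3 and 9 months (8.69% of all genes called). Between 9 and 15 months 0 were called (0.431% of all genes). Between 15 and 24 months 5 were called higher and 6 lower, beside 6.28% and 7.24% of all genes. Between 24 and 28 months 6 were called higher and 4 lower, beside 5.66% and 6.01% of all genes. Between 3 and 28 months 24 were called higher and 11 lower, with a median log2 fold change of 0.02, beside 23.5% of all genes called higher and 25.9% lower. By function, the higher and lower calls over this span were 7 and 1 of 16 genes of fatty acid activation and carnitine handling, 5 and 3 of 15 of mitochondrial oxidation, and 1 and 2 of 12 of peroxisomal oxidation. They were 1 and 1 of 7 genes of ketone bodies, 3 and 3 of 10 regulators, and 7 and 1 of 14 genes of lipid droplets and lipolysis. The last group had a median of 0.24, the furthest from 0 of the 6. Its genes Cidec and Plin1 are also on the adipocyte marker list, and Fabp4 is an adipocyte gene too. Of the adipocyte markers 2 of 6 were called higher over this span, with a median of 0.61.

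The largest rises among these genes between 3 and 28 months were those of Creb3l3 (1.29 ± 0.18, edgeR adjusted p = 1.29e-08), a transcription factor of lipid metabolism in liver and intestine, Fabp4 (0.71 ± 0.26, edgeR adjusted p = 0.0209), the adipocyte fatty acid-binding protein, and Cidec (0.57 ± 0.14, edgeR adjusted p = 0.000757), which promotes the growth of lipid droplets. Mgll, the lipase that breaks down monoacylglycerol, fell the most. Its mice ranged from 90.8 to 127 CPM at 3 months and from 49.9 to 83.0 CPM at 28 months, which did not overlap, with a log2 fold change of −0.73 ± 0.06 (edgeR adjusted p = 3.14e-17). Ppard, the third PPAR, ranged from 194 to 275 CPM at 3 months and from 127 to 196 CPM at 28 months, a fall with a log2 fold change of −0.42 ± 0.05 (edgeR adjusted p = 1.64e-11). Of the 3 PPAR genes, Pparg was thus called higher in the oldest mice, Ppard lower and Ppara not at all. Pdk3, a relative of Pdk4, changed by −0.20 ± 0.05 (edgeR adjusted p = 0.000819).

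Other marker genes moved over the same span. At 28 against 3 months, the markers called higher and lower were 1 and 2 of 7 for colonocytes, 0 and 3 of 5 for all epithelium, 1 and 4 of 5 for goblet cells, 0 of 6 for smooth muscle and 0 and 3 of 4 for B cells. They were 2 and 1 of 4 tested for small intestine, 0 and 1 of 3 for hepatocytes, 0 and 2 of 4 for the posterior colon and 7 and 2 of 11 for the clock. The goblet cell sums ranged from 26400 to 37100 CPM at 3 months and from 21600 to 32000 CPM at 28 months. With the colonocyte and smooth muscle scores as covariates, 20 of the 22 member calls between ages were kept, without Hadha and Bdh1 at 28 against 3 months, and 5 of the 6 off a straight line, without Fabp2. The part of goblet cell and B cell markers in the members' changes was not tested.

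Pairs of genes that work together were then compared across the 83 mice, after removal of the mean of each age and batch from the log2 CPM. Of 24 pairs fixed by their biochemistry or by cell type, 13 passed an adjusted permutation p-value of 0.1 (two-sided, permuted within age and batch, Benjamini-Hochberg over 24), 12 of them positive. For these 13 the permutation p-values of Spearman's rho ranged from 1e-05 to 0.019 (adjusted p from 4.8e-05 to 0.035). The strongest pair of enzymes was Hadha and Hadhb, the head-to-head genes, with r = 0.79 and rho = 0.76 (permutation p = 1e-05, the smallest that the resamples can give, adjusted p = 4.8e-05). Without the 2 mice furthest in Hadha r was 0.78, and within the batches of 28, 29 and 26 mice it was 0.79, 0.81 and 0.82. Mice high in one subunit tended to be high in the other for their age and batch.

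Etfa and Etfdh had r = 0.58 and rho = 0.55 (permutation p = 1e-05, adjusted p = 4.8e-05, 0.57 without 2 mice, 0.64, 0.46 and 0.62 by batch). The 2 subunit genes Etfa and Etfb had r = 0.25 and rho = 0.28 (permutation p = 0.0218, adjusted p = 0.0403), 0.22 without 2 mice, and 0.65, 0.46 and −0.03 by batch, so the relation did not hold in the third batch. Cpt1a and Slc25a20 had r = 0.33 and rho = 0.36 (permutation p = 0.0142, adjusted p = 0.0309, 0.35 without 2 mice, 0.42, 0.30 and 0.32 by batch). Cpt2 and Slc25a20 had r = 0.06 and did not pass (adjusted p = 0.745). In ketone metabolism Acat1 had r = 0.32 with Oxct1 and 0.40 with Bdh1 (rho = 0.30 and 0.35, permutation p = 0.01 and 0.00248, adjusted p = 0.0241 and 0.00744), with values by batch of 0.09, 0.56 and 0.29 and of 0.09, 0.39 and 0.62. Without the 2 mice furthest in Acat1 neither passed, with r still positive (0.24 and 0.21). Spearman's rho over all mice passed for both (permutation test, adjusted p = 0.0233 and 0.00689). Without replicate 16 of the 15-month group r was 0.27 with Oxct1 and 0.25 with Bdh1.

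Of the pairs of a regulator with a known target, Ppara with Cpt1a and Ppargc1a with Ppara passed. Ppara had r = 0.57 with Cpt1a (rho = 0.55, 0.47 without 2 mice, and 0.78, 0.59 and 0.46 by batch) and 0.60 with Ppargc1a (rho = 0.55, 0.58 without 2 mice, and 0.68, 0.35 and 0.71 by batch), both with permutation p = 1e-05 and adjusted p = 4.8e-05. Pdk4 varied across mice with Angptl4 (r = 0.52, rho = 0.47, permutation p = 2e-05, adjusted p = 8e-05, 0.52 without 2 mice, and 0.62, 0.62 and 0.37 by batch) and with Cpt1a (r = 0.47, rho = 0.52, permutation p = 3e-05, adjusted p = 0.000103, 0.49 without 2 mice, and 0.39, 0.66 and 0.38 by batch). These 3 genes are induced together by fasting in other tissues. The mice of the study had free access to food, and their feeding state at sampling is not given in the sources used here. The part of feeding in these correlations was not tested. Pdk4 and Ppara did not pass (r = 0.17, adjusted p = 0.258). Pparg did not follow its known targets Cd36 (r = −0.10), Angptl4 (r = −0.11) or Plin2 (r = 0.16) past the threshold (adjusted p = 0.452, 0.437 and 0.26).

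Against the cell type scores, Cd36 had r = 0.82 and rho = 0.85 with the adipocyte score (permutation p = 1e-05, adjusted p = 4.8e-05, 0.81 without 2 mice, and 0.79, 0.87 and 0.80 by batch), the highest r of the 24 pairs. It had r = 0.31 with the smooth muscle score (rho = 0.29, permutation p = 0.00721, adjusted p = 0.0192, 0.30 without 2 mice, and 0.33, 0.35 and 0.30 by batch) and 0.07 with the colonocyte score (adjusted p = 0.624). Pparg had r = −0.30 with the smooth muscle score (rho = −0.42, permutation p = 0.0206, adjusted p = 0.0403), −0.48, −0.43 and −0.13 by batch, which did not pass without 2 mice (r = −0.25). Its r was −0.11 with the adipocyte and 0.20 with the colonocyte score (adjusted p = 0.444 and 0.159), the latter 0.26 without 2 mice. The 3 pairs of Ppargc1a with the scores did not pass (r from −0.21 to 0.01). By batch its r with the smooth muscle score was −0.57, −0.31 and 0.09.

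**Figure D5:**
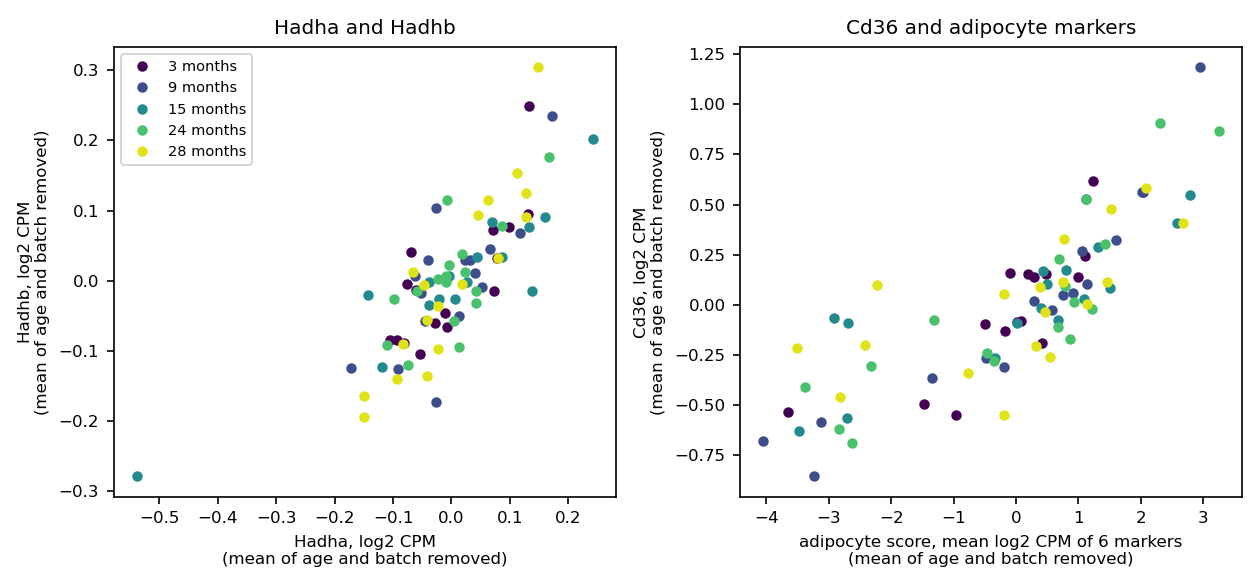
Left, log2 CPM of Hadhb (vertical axis) against Hadha, and right, log2 CPM of Cd36 (vertical axis) against the adipocyte score, each point 1 mouse coloured by age, with the mean of each age and batch removed. Both panels slope upward over all mice (r = 0.79 and 0.82, n = 83).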

How the data were processed

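Per the labels and the study's methods, reads (100 bp pairs, TruSeq stranded) were trimmed with cutadapt 2.8, filtered with PrinSeq Lite and aligned to GRCm38 with HISAT2 2.1.0. Uniquely mapped reads were kept with SAMtools 1.9, and read pairs were counted per gene by strand with featureCounts (Subread 2.0.1). As deposited by the authors, the table gives raw counts for every gene in every mouse, neither normalized nor pooled. Each label gives an age and a replicate number, the study describes 83 separate mice, and all were used.

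Low counts were removed by filterByExpr within age groups (edgeR 4.0.16, R 4.3.3), which left 18325 of 37764 genes, normalized with TMM and fitted in 1 quasi-likelihood model of age group and library batch. P-values were adjusted by Benjamini-Hochberg within each comparison, with a threshold of 0.1. At depths of 23026370 to 75838290 read pairs, genes of a few counts such as Fabp1 were beyond the filter. CPM used the TMM library sizes, and scores and correlations used log2 CPM (prior count 2) and 100000 permutations within age and batch (Python 3.11.15, numpy 2.4.6, scipy 1.17.1, pandas 2.3.3, matplotlib 3.10.9). TPM used merged exon lengths of GENCODE M21 (GRCm38), an earlier release than that used for counting, and 112 genes without a length entered no TPM. The pipeline was tested on simulated data.

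All 30 members are named. Values by age are given for those called in at least 1 test and as ranges for the rest. Of the other pathway genes at most the 3 largest rises and 3 largest falls by log2 fold change among genes past the threshold at 28 against 3 months are named, and 1 gene set by symbol in the rule is not reported here. Clock genes and markers were named where a result touched them. The members, gene lists and marker lists (colonocyte, pan-epithelial, goblet, smooth muscle, adipocyte, endothelial, macrophage, B cell, small intestine, hepatocyte, posterior colon and clock) were chosen with earlier results of these data known.

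The alternatives were DESeq2 1.42.0, DESeq2's size factors, no filter, a minimum of 10 counts in each mouse, a model without batch, a block for the replicate number, an adjusted p-value below 0.05, covariates for cell type scores and a fit of the 2 ages compared. The clock score as a covariate and the fits without named mice were added after the data were seen. The bisulfite data of the study were not analysed here.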

Additional observations from a re-analysis of the deposited data

How the results depend on the processing

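The 22 calls of members over the 5 comparisons of ages kept their direction under every alternative run. All 22 were still called without the batch term, with the adipocyte score as a covariate and without replicate 16 of the 15-month mice. 20 were called with DESeq2, with its size factors, with at least 10 counts in every mouse, with the colonocyte and smooth muscle scores as covariates and in fits of only the 2 ages, each time without Hadha and Bdh1 at 28 against 3 months, which were also among the calls lost in the fits named next. There were 18 without the filter and 18 without the 3 mice that stood apart, 17 at an adjusted p-value below 0.05 and 13 with the clock score as a covariate. Of the counts that moved by more than 1.5 times, the members called between 15 and 24 months were 1 without the filter (4.04% of all genes) and 1 at an adjusted p-value below 0.05 (7.53%), against 2 (13.5%), and those between 24 and 28 months were 0 with the clock score (0.104% of all genes), against 5. Those off a straight line were 10 with DESeq2 (15.7% of all genes), 10 with at least 10 counts in every mouse (18.8%) and 1 with the clock score (7.94%), against 6 (16.2%). Between 3 and 9 months 3 members were called without replicate 16 of the 15-month mice (9.66% of all genes). The cause was not tested for these, except that a stricter threshold can only lower a count. Within single batches, which hold fewer mice, 8 pairs of genes passed in batch 2 and 6 in batch 3, against 13 over all mice, and Etfa with Etfb had r = −0.03 in batch 3.

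Replicate numbers did not pair the mice. Over 161 pairs of mice with the same number at 2 ages, the mean correlation of their deviations was 0.00211, from −0.314 to 0.29, and 3 of 83 mice correlated best with their own number. With the replicate number as a block 2 members were called between 3 and 9 months (Fabp2 beside Pdk4, with 8.22% of all genes), 12 between 3 and 28 months (47.1%) and 7 off a straight line (14.5%), and 20 of the 22 calls between ages were kept, again without Hadha and Bdh1.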
